A study of Mus musculus with 6 samples.

Results

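The expression of 35 genes of glycolysis and the hypoxia response was examined in the embryonic mouse cardiac outflow tract (OFT), the vessel segment through which blood leaves the developing heart. The genes were chosen by symbol and were found among 28777 genes of the count table. They comprised 3 subunits of the hypoxia-inducible factors (HIF), 3 genes of oxygen sensing, 4 transporters of glucose and lactate, 16 glycolytic enzymes, 3 genes that direct carbon into or away from glycolysis and 6 other hypoxia targets. Bulk RNA-Seq had been performed at E13.5 on 6 libraries, and each held the RNA of a pool of 3 OFTs. The libraries labelled mutant came from Notch1+/-; Nos3-/- embryos, in which 1 copy of the Notch1 receptor gene and both copies of the endothelial nitric oxide synthase gene carried germline knockout alleles, present in every cell type. The libraries labelled wildtype came from Notch1+/+; Nos3+/+ littermates. Both lines were kept in a C57/BL6J background, and the labels name no treatment.

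Depth ranged between 34729103 and 44387490 counts per library, and the lowest count of any of the 35 genes in a library was 104. Each library is a pool of separate embryos. The check of the targeted genes gave Nos3 lower under the mutant label (log2 fold change -0.98 ± 0.15, edgeR adjusted p = 0.128, where ± is the standard error after a log2 fold change and the SD over libraries after a mean) but Notch1 higher in all 3 mutant libraries (log2 fold change 0.89 ± 0.10, adjusted p = 0.0313). Counts summed over a whole gene do not separate the disrupted part, and the groups below are therefore named by their labels. Summed myocardial markers, which include cardiac myosins and troponins, were at 35975 to 53341 CPM (counts scaled to the effective size of each library) in the libraries labelled wildtype and 24784 to 35422 CPM in those labelled mutant, so the groups did not overlap. Mesenchymal markers such as Postn and Col1a1 summed to 4677 to 9126 CPM under the wildtype label and 8490 to 11018 CPM under the mutant label. Erythroid markers summed to 5420 to 11914 CPM and 6175 to 6325 CPM, respectively. Wildtype 2 and wildtype 3 also held liver transcripts, at 101 and 29.7 CPM in sum, against 2.61 CPM in wildtype 1 and 4.03 to 7.23 CPM in the mutant libraries.

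HIF is a pair of proteins, an oxygen-labile alpha subunit and a constant beta subunit. In the presence of oxygen the prolyl hydroxylases mark the alpha subunit for destruction through the VHL protein, and when oxygen is low the pair binds short response elements beside its target genes. Many targets encode glucose transporters and glycolytic enzymes, and the embryonic heart is known for its reliance on glycolysis. Some targets, among them Egln3, feed back on HIF itself. Because HIF is controlled largely by protein stability, the amount of its transcript does not report its activity.

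The core letters of the HIF response element, ACGTG or GCGTG on either strand (CACGTG, which reads the same on both strands, counted once), were sought in the 250 bases before each RefSeq gene start. RefSeq windows matched 32 of the 35 genes, several with more than 1 start. Windows of 1 gene can overlap, and each was counted. Of their 44 windows, 37 (84.1%) held either motif, against 38.6% of all 32851 windows and 54.8% of windows of genes averaging 1 CPM or more. ACGTG alone stood in 45.5% of the windows of these genes, 16.6% of all windows and 21.3% of windows of genes averaging 1 CPM or more. Of the 58 windows matched by 52 further pathway genes, described below, 62.1% held either motif and 32.8% held ACGTG. A match describes the letters and is not evidence of a bound site. Of the windows that share no base with an annotated exon, 5 are printed 5′ to 3′ on the strand of the gene, with the matches in capitals. They belong to Egln3 and P4ha2, which were among the genes highest under the mutant label relative to wildtype, and to Ldhb, which was lowest. The others belong to Ldha and Pgk1, 2 abundant enzymes whose printed windows held more than 1 copy of ACGTG. A second Ldha window, chr7:46846832-46847081, is not printed and held 1 match, a GCGTG on the opposite strand. The window of Tpi1, also an abundant enzyme, held no match. The Egln3 window lies at chr12:54203875-54204124 on the minus strand and held a single match, 229 bases before the start. The P4ha2 window is chr11:54100674-54100923 (plus strand) with 3 matches, the Ldha window chr7:46845554-46845803 (plus strand) with 3, the Pgk1 window chrX:106186850-106187099 (plus strand) with 2 and the Ldhb window chr6:142507958-142508207 (minus strand) with 1, a GCGTG. All coordinates are GRCm38.p6.
Egln3: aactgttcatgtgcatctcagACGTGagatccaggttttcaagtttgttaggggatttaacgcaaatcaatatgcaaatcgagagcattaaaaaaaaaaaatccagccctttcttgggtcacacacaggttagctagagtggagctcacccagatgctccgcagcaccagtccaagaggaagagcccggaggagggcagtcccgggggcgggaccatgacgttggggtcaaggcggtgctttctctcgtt
P4ha2: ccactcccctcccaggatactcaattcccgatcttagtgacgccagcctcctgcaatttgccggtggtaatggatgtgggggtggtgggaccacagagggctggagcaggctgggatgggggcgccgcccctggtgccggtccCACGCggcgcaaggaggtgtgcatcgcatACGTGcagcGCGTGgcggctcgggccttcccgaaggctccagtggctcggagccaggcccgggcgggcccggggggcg
Ldha: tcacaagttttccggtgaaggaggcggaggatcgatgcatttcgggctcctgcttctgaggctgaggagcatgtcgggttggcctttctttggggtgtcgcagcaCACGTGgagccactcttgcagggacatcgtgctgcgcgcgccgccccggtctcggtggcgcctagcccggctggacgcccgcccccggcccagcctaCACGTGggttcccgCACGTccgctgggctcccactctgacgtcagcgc
Pgk1: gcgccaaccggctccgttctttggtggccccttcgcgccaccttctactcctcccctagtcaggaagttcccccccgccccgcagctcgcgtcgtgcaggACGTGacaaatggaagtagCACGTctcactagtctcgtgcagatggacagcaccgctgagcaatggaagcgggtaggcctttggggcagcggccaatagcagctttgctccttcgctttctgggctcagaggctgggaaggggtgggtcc
Ldhb: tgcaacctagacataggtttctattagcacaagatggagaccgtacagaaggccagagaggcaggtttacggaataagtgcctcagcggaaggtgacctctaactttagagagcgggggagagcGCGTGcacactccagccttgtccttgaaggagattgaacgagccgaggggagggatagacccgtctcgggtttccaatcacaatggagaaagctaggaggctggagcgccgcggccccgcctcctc

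Levels were first compared between genes as CPM per kb of exon, averaged over the 6 libraries. Ldha, which reduces pyruvate to lactate, had the highest level (395 CPM per kb), followed by Tpi1 (368) and Aldoa (305), enzymes of the middle of the pathway. Among the transporters, Slc2a1, the glucose transporter GLUT1, stood at 108 CPM per kb and its relative Slc2a3 at 7.44. The lactate carriers Slc16a3 and Slc16a1 were at 33.7 and 20.2 CPM per kb. Hif1a (34.8 CPM per kb) exceeded its partner Arnt (9.13) and the other alpha subunit Epas1 (7.20), and the level of Egln1 (33.3) exceeded that of Egln3 (15.9). The lowest levels were those of Aldoc (3.19), Ndrg1 (3.41), Ankrd37 (3.14) and Pfkfb4 (1.02). Levels of Gapdh, Pgk1, Pgam1, Eno1, Tpi1, Ldha and Aldoa are uncertain, because reads can be shared with near-identical annotated copies. Pgk1-rs7 alone was counted at 321% of the CPM of Pgk1, Eno1b at 242% of Eno1, and the copies of Pgam1 and Gapdh at 86.8% and 83.9% of their genes. Exon bases were shared with another annotated gene by 13 of the 35 genes, on the same strand for Hif1a and Pfkm, and reads in these stretches cannot be assigned with certainty.

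**Figure D1:**
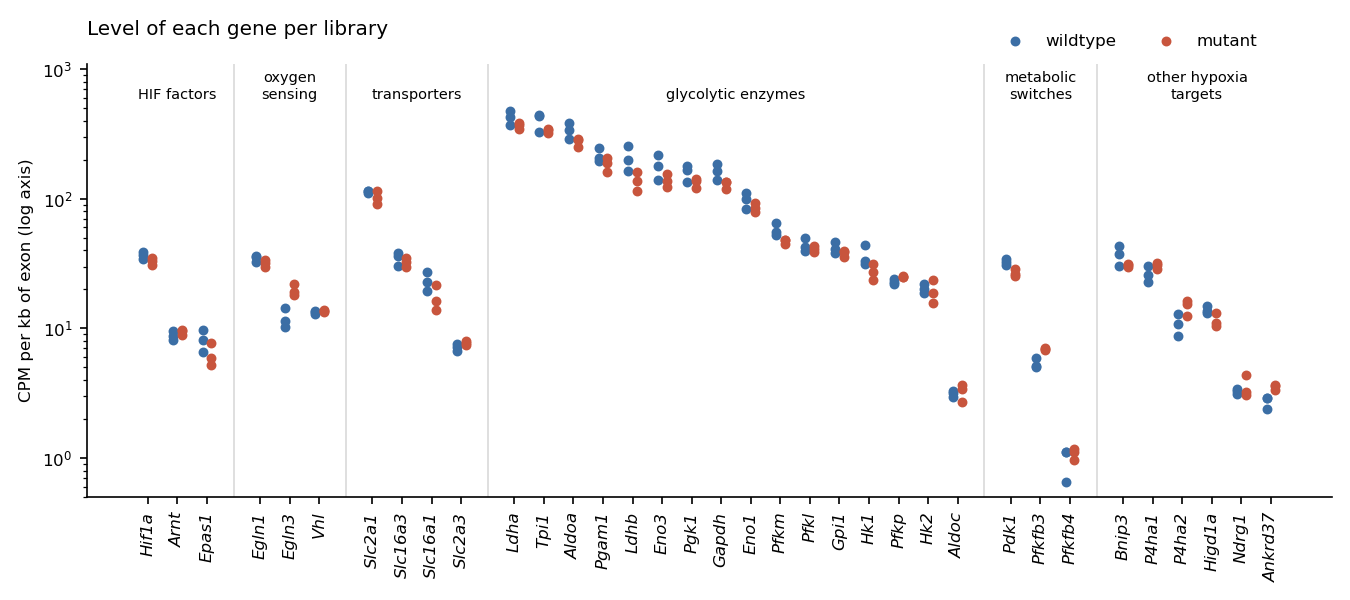
Level of each of the 35 genes in CPM per kb of exon (log axis), 1 point per library, grouped by role and ordered by mean level, with wildtype libraries in blue and mutant libraries in red. Glycolytic enzymes span the range between Ldha at 395 and Aldoc at 3.19 CPM per kb, and the points of the groups lie close together beside the differences between genes.

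The groups were then compared gene by gene. None of the 35 genes passed an adjusted p of 0.05 in edgeR, where 0.0213% of all 28157 genes did (0.0178% higher and 0.00355% lower). In this comparison 13 of the 35 genes had an unadjusted p under 0.05, 4 higher and 9 lower. The share was 16.1% of all genes (8.23% higher and 7.83% lower). Of the 16655 genes averaging 1 CPM or more it was 22.0% (1693 genes higher and 1978 lower). CPM of the groups did not overlap for 8 genes, 4 higher (Egln3, Pfkp, Pfkfb3 and Ankrd37) and 4 lower (Pfkm, Gapdh, Ldhb and Pdk1), against 19.6% of all genes (10.7% higher and 8.94% lower) and 23.5% of those averaging 1 CPM or more. Of the 35 genes, 12 were fitted higher and 23 lower under the mutant label, with a median log2 fold change of -0.15. The median was 0.011 over all genes tested and -0.030 over those averaging 1 CPM or more, as each of the 35 did. Lower levels were fitted for 48.8% of all genes tested and 54.7% of those averaging 1 CPM or more. The sign of Slc16a3, Hk2 and Pfkl turned when only library size was scaled. Median log2 fold changes by role were -0.24 for glycolytic enzymes, -0.15 for HIF subunits and -0.13 for transporters, against 0.028 for oxygen sensing, 0.17 for the metabolic switches and 0.16 for the other hypoxia targets. The calls depended on the test. DESeq2, with which 2.64% of all genes were called (1.46% higher and 1.18% lower), called 3 of the 35 genes (Egln3 and Pfkfb3 higher, Ldhb lower) and limma-voom called 0, with 0.0178% of all genes called (0.0142% higher and 0.00355% lower). With the replicate number as a block edgeR called 5.6% of all genes (3.18% higher and 2.42% lower) and 6 of the 35, namely Egln3, Pfkfb3 and P4ha2 higher and Slc16a1, Hk1 and Ldhb lower. With the block by the sample descriptions 0.295% of all genes (83, 62 higher and 21 lower) and 1 of the 35, Egln3 (higher), were called. Without wildtype 1, 9.45% of all genes (4.15% higher and 5.3% lower) and 10 of the 35 were called (Egln3, Pfkfb3 and P4ha2 higher, and Pfkm, Aldoa, Tpi1, Gapdh, Pgk1, Eno3 and Ldhb lower). Leaving out any other single library gave 0 calls among the 35 genes. Calls were more frequent among the 16655 genes averaging 1 CPM or more, as each of the 35 did, than among all genes. Of these 16655, DESeq2 called 721, the replicate block 1499, the block by the descriptions 72 and the fit without wildtype 1 2493.

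**Figure D2:**
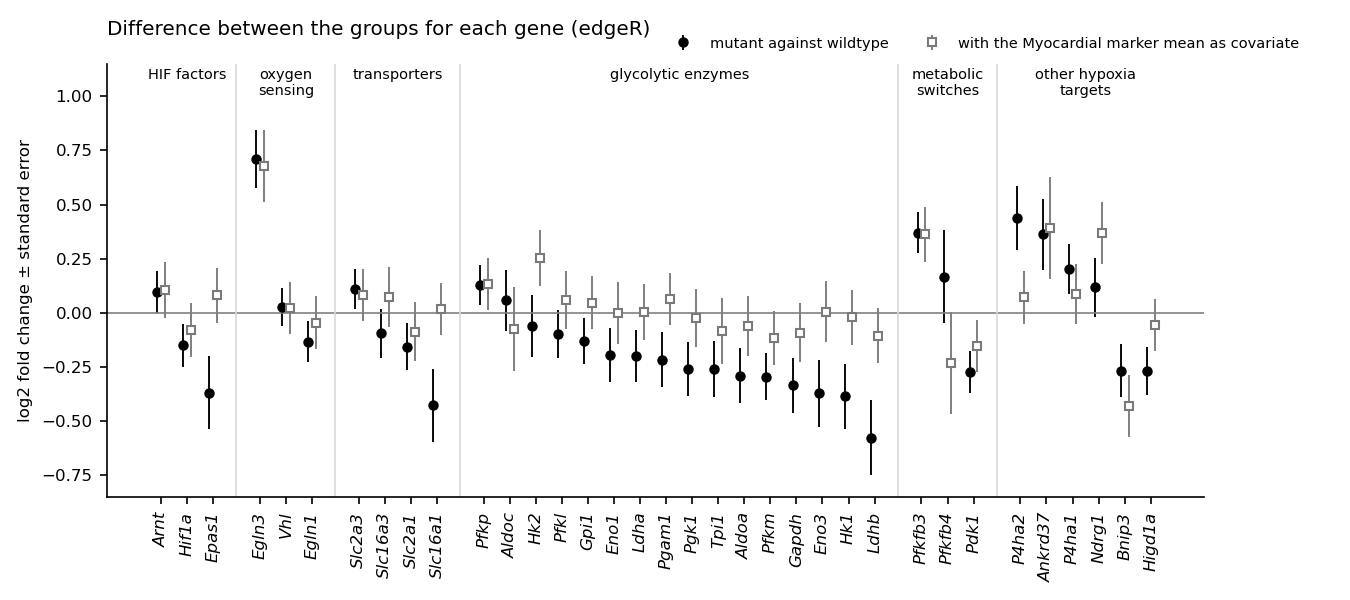
Fitted log2 fold change of each gene, mutant against wildtype, with its standard error, by role (filled circles), and the same with the mean log2 level of the Myocardial markers as a covariate (open squares). Among glycolytic enzymes 14 of 16 circles lie below 0 (Hk2 and Pfkl turn above 0 when only library size is scaled) and the squares have a median of -0.011, while Egln3 and Pfkfb3 stand at 0.71 and 0.37 without and at 0.68 and 0.36 with the covariate.

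Egln3 showed the largest difference of the 35 genes. It encodes a HIF prolyl hydroxylase and lies at chr12:54178981-54203860 on the minus strand (GRCm38). It was counted at 38.3, 30.5 and 27.4 CPM in wildtype 1, 2 and 3 and at 51.1, 47.8 and 58.6 CPM in mutant 1, 2 and 3. Every mutant library was above every wildtype library, with means of 52.5 ± 5.55 and 32.1 ± 5.61 CPM (SD, n = 3 each). The log2 fold change was 0.71 ± 0.13 (adjusted p = 0.134). The adjusted p was 0.00108 in DESeq2, 0.00166 with the replicate block and 0.0123 without wildtype 1, and ranged between 0.00108 and 0.576 over the alternatives. Egln1, the main hydroxylase acting on HIF in normal oxygen, was counted at 130, 118 and 128 CPM under the wildtype label and 115, 106 and 121 CPM under the mutant label. These groups overlapped and the log2 fold change was -0.13 ± 0.10 (adjusted p = 0.525). Vhl, the recognition subunit of the ligase that marks HIF for destruction, had means of 40.0 ± 1.00 and 40.8 ± 0.712 CPM (SD), a log2 fold change of 0.028 ± 0.09. The ratio of Egln3 to Egln1 within a library does not depend on scaling. It averaged -1.98 ± 0.23 on the log2 scale under the wildtype label and -1.13 ± 0.066 under the mutant label (SD, n = 3), or 0.343 and 0.619 per length. The 2 sets did not overlap (exact two-sided permutation p = 0.1, the smallest that 3 against 3 allows, and 0.25 after adjustment over 10 ratios).

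None of the 3 HIF subunits had an unadjusted p under 0.05. Hif1a, the widely expressed alpha subunit, was at 227, 202 and 219 CPM in the wildtype and 194, 182 and 208 CPM in the mutant libraries (log2 fold change -0.15 ± 0.10, adjusted p = 0.476). The ranges overlapped through wildtype 2 and mutant 3. Epas1, the alpha subunit HIF-2 of endothelial and other cells, averaged 45.4 ± 8.99 and 35.1 ± 7.33 CPM (log2 fold change -0.37 ± 0.17, adjusted p = 0.319). Arnt, the common beta subunit, averaged 70.6 ± 5.72 and 75.6 ± 3.39 CPM. The log2 ratio of Epas1 to Hif1a was -2.27 ± 0.33 and -2.49 ± 0.20, with overlapping groups. Epas1 was highest in wildtype 3 (54.4 CPM) and lowest in mutant 2 (29.1 CPM), the libraries in which the summed Myocardial markers were also highest and lowest. In a fit with the mean log2 level of these markers as a covariate, its log2 fold change was 0.081 ± 0.13. Summed Endothelial markers were also highest in wildtype 3 (1255 CPM) but lowest in wildtype 1 (948 CPM). The part of muscle or endothelial transcripts in the Epas1 difference was not tested.

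Of the 4 transporters, Slc16a1, the lactate carrier MCT1, differed most. Its level was 85.9, 101 and 121 CPM under the wildtype label and 71.4, 61.3 and 95.9 CPM under the mutant label. Mutant 3 lay above wildtype 1, so the groups overlapped. The log2 fold change was -0.43 ± 0.17 (adjusted p = 0.267), and the adjusted p was 0.0254 with the replicate block and between 0.02 and 0.999 over the alternatives. Slc2a1 was counted at 390, 404 and 405 CPM in the wildtype libraries and 401, 321 and 355 CPM in the mutant libraries. Mutant 1 lay within the wildtype range, and the log2 fold change was -0.16 ± 0.11 (adjusted p = 0.50). Slc2a3, the glucose transporter GLUT3, had a log2 fold change of 0.11 ± 0.09. Slc16a3, the lactate exporter MCT4, had one of -0.095 ± 0.11, which turned to 0.013 when only library size was scaled. Ratios of Slc2a3 to Slc2a1 and of Slc16a3 to Slc16a1 overlapped between groups.

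Glycolytic enzymes were lower under the mutant label for 14 of 16 genes. Of these 14, 6 had an unadjusted p under 0.05, and Pfkp and Aldoc were higher. Of all genes 48.8% were lower (54.7% of those averaging 1 CPM or more), and 7.83% were lower at that p. Of the 16655 genes averaging 1 CPM or more, 1978 were lower at that p. In bulk tissue fewer cells of a type and less RNA per cell cannot be told apart. Hk2 and Pfkl were among the 14, but their sign turned when only library size was scaled, a scaling that moved the median of all genes to 0.11. The median deviation of the 16 enzymes from their gene means, in log2(CPM + 0.5), was -0.068, 0.11 and 0.29 in wildtype 1, 2 and 3 and -0.074, -0.24 and -0.033 in mutant 1, 2 and 3. Wildtype 1 thus lay within the mutant range, and wildtype 3 was the highest library. The same median over the 16 Myocardial markers was 0.0047, 0.20 and 0.56 in the wildtype and -0.25, -0.49 and -0.028 in the mutant libraries, which is the same order of libraries within each group. All 16 Myocardial markers had a negative log2 fold change, 13 with an unadjusted p under 0.05. At that p 7.83% of all genes were lower, and 1978 of the 16655 averaging 1 CPM or more.

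**Figure D3:**
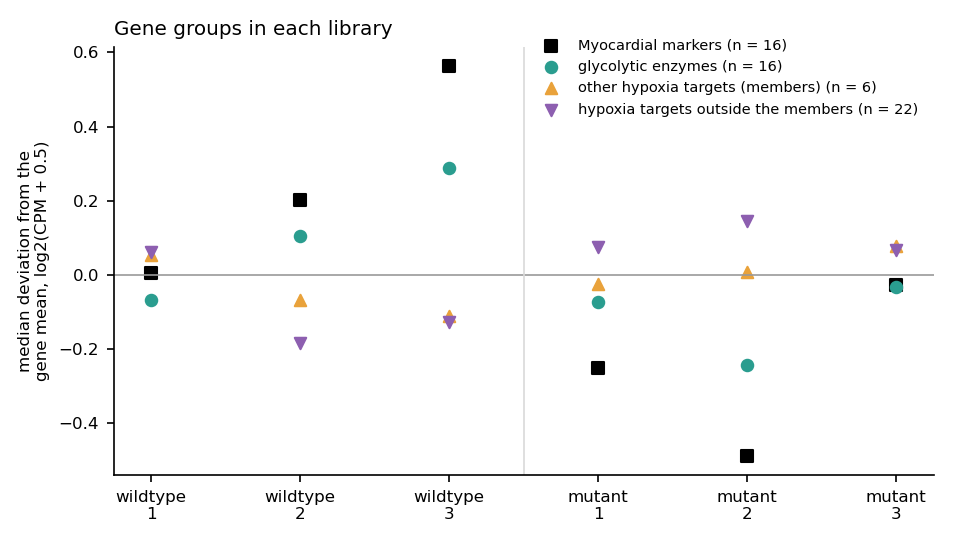
Median deviation of each gene group from its gene means in log2(CPM + 0.5), 1 point per group and library. Glycolytic enzymes (circles) and Myocardial markers (squares) are highest in wildtype 3, at 0.29 and 0.56, and lowest in mutant 2, at -0.24 and -0.49, whereas hypoxia targets outside the 35 genes (inverted triangles) are at -0.18 and -0.13 in wildtype 2 and 3 and between 0.062 and 0.15 in the other libraries.

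With the Myocardial covariate in the fit, the median log2 fold change of the 16 enzymes was -0.011, with 7 higher and 9 lower, and 0 of the 35 genes were called. The covariate was itself different between the groups, so the fit does not separate a difference in muscle content from one within muscle cells. The changes between fits differed by gene. Ldhb went from -0.58 to -0.10 (standard errors 0.17 and 0.13), Hk1 from -0.39 to -0.020, and Eno3 from -0.37 to 0.0047. Egln3 went from 0.71 to 0.68 (standard errors 0.13 and 0.17) and Pfkfb3 from 0.37 to 0.36 (standard errors 0.09 and 0.13).

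Ldhb had the lowest log2 fold change of the 35 genes. It encodes the lactate dehydrogenase subunit that predominates in oxidative heart muscle, and lies at chr6:142490249-142507957 on the minus strand (GRCm38). Its level was 255, 310 and 404 CPM in the wildtype and 216, 180 and 254 CPM in the mutant libraries. The groups did not overlap, although wildtype 1 and mutant 3 nearly met. The log2 fold change was -0.58 ± 0.17 (adjusted p = 0.203). DESeq2 gave an adjusted p of 0.038, the replicate block 0.00796 and the fit without wildtype 1 0.0267, within a range of 0.00246 to 0.993. Ldha, the subunit that favours lactate production, was at 1215, 1418 and 1566 CPM and at 1236, 1140 and 1280 CPM. These groups overlapped (log2 fold change -0.20 ± 0.12, adjusted p = 0.434). The log2 ratio of Ldhb to Ldha was -2.13 ± 0.16 under the wildtype label and -2.50 ± 0.17 under the mutant label (SD, n = 3), without overlap (exact permutation p = 0.1, adjusted 0.25).

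Isoforms of the other steps differed in size and direction. Hk1, the hexokinase of most tissues, was at 282, 265 and 373 CPM in the wildtype and 233, 202 and 269 CPM in the mutant libraries. The groups overlapped between wildtype 2 and mutant 3, with a log2 fold change of -0.39 ± 0.15 (adjusted p = 0.262). The adjusted p of Hk1 was 0.0456 with the replicate block and between 0.000638 and 0.999 over the alternatives. Hk2, the hexokinase of insulin-responsive muscle, averaged 121 ± 10.5 and 116 ± 24.4 CPM, a log2 fold change of -0.060 ± 0.14. The log2 ratio of Hk2 to Hk1 was -1.33 ± 0.14 and -1.03 ± 0.094, without overlap (exact permutation p = 0.1, adjusted 0.25). Pfkm, the muscle subunit of phosphofructokinase, which commits sugar to glycolysis, was at 174, 185 and 218 CPM and at 161, 148 and 160 CPM. Its groups did not overlap (log2 fold change -0.30 ± 0.11, adjusted p = 0.245). Pfkp, the platelet subunit, was at 321, 295 and 306 CPM and at 333, 332 and 342 CPM. Its groups did not overlap either, in the opposite direction, but the difference was small (log2 fold change 0.13 ± 0.09, adjusted p = 0.522). Pfkl, the liver subunit, had a log2 fold change of -0.098 ± 0.11. The log2 ratio of Pfkm to Pfkl was -0.60 ± 0.0040 under the wildtype label and -0.80 ± 0.038 under the mutant label, again without overlap (exact permutation p = 0.1, adjusted 0.25), and that of Pfkp to Pfkl overlapped.

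**Figure D4:**
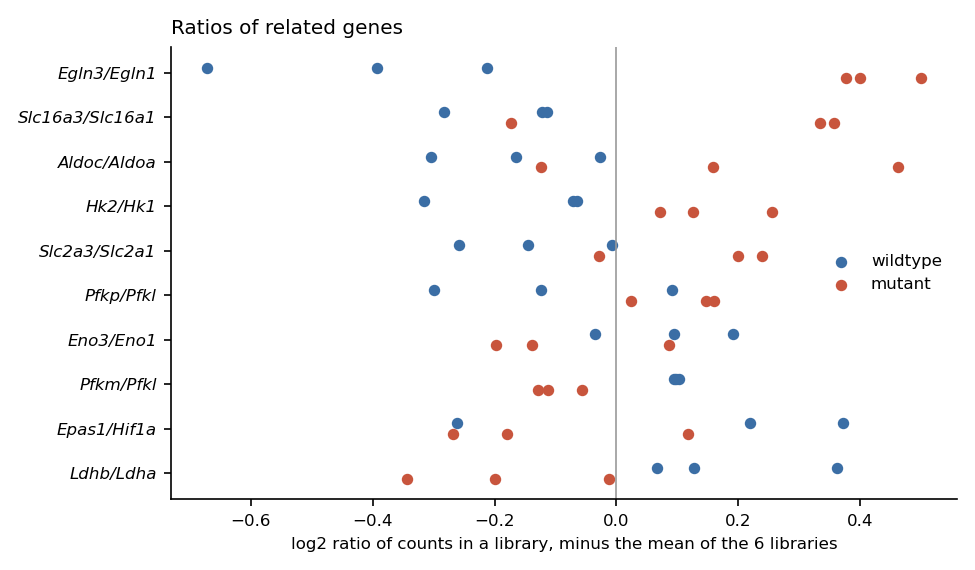
Log2 ratio of counts of 10 pairs of related genes in each library, shown as the deviation from the mean of the 6 libraries, with wildtype libraries in blue and mutant libraries in red. Points of the groups do not overlap for Egln3/Egln1, Hk2/Hk1, Pfkm/Pfkl and Ldhb/Ldha, whose differences between group means are 0.85, 0.30, -0.20 and -0.37.

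Of the lower part of the pathway, Gapdh, which oxidizes glyceraldehyde 3-phosphate, was at 573, 675 and 771 CPM in the wildtype and 557, 487 and 558 CPM in the mutant libraries. All mutant libraries were below all wildtype libraries, by a narrow margin for wildtype 1, and the log2 fold change was -0.33 ± 0.13 (adjusted p = 0.254). Aldoa, the aldolase of muscle, was at 835, 979 and 1122 CPM and at 844, 733 and 823 CPM. Only mutant 1 lay above a wildtype library (log2 fold change -0.29 ± 0.13, adjusted p = 0.298). Eno3, the muscle enolase, was at 243, 312 and 376 CPM and at 238, 213 and 268 CPM. Mutant 3 lay above wildtype 1 (log2 fold change -0.37 ± 0.15, adjusted p = 0.284). Without wildtype 1 the adjusted p was 0.0275 for Gapdh, 0.0344 for Aldoa, 0.0291 for Eno3 and 0.0425 for Pfkm. It was 0.0224 for Tpi1 and 0.0387 for Pgk1, whose log2 fold changes over all libraries were both -0.26 (standard errors 0.13 and 0.12). Over the alternatives these adjusted p values ranged between 0.00821 and 1.00. Gpi1, Pgam1 and Eno1 had log2 fold changes of -0.13, -0.22 and -0.19, and Aldoc, at a mean of 10.2 ± 0.525 and 10.6 ± 1.56 CPM, one of 0.059. When the counts of annotated copies were added to their genes, the log2 fold changes were -0.31 for Gapdh, -0.28 for Pgk1, -0.29 for Aldoa, -0.26 for Tpi1, -0.23 for Eno1, -0.20 for Pgam1 and -0.20 for Ldha. The direction of these 7 genes was therefore the same with and without the copies, and none was called.

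The metabolic switches differed in direction. Pfkfb3, which makes the allosteric activator of phosphofructokinase, lies at chr2:11471433-11554077 on the minus strand (GRCm38). It was at 38.4, 44.3 and 38.9 CPM in the wildtype and 53.5, 51.4 and 52.4 CPM in the mutant libraries. The mutant libraries averaged 52.4 ± 1.07 CPM and every one was above every wildtype library (40.6 ± 3.25). The log2 fold change was 0.37 ± 0.09 (adjusted p = 0.191). The adjusted p was 0.0366 in DESeq2, 0.0442 with the replicate block and 0.0455 without wildtype 1, in a range of 0.0348 to 0.734. Pfkfb4, a testis-rich relative, was low, at 4.69 ± 1.29 and 5.28 ± 0.501 CPM, and its direction depended on wildtype 3 (log2 fold change 0.17 over all libraries and -0.040 without that library). Pdk1, a kinase that holds pyruvate dehydrogenase inactive and keeps pyruvate out of mitochondria, went the opposite way to Pfkfb3. It was at 252, 239 and 265 CPM and at 203, 198 and 225 CPM. These groups did not overlap (log2 fold change -0.27 ± 0.10, adjusted p = 0.243), and with the Myocardial covariate the log2 fold change was -0.15 ± 0.12.

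**Figure D5:**
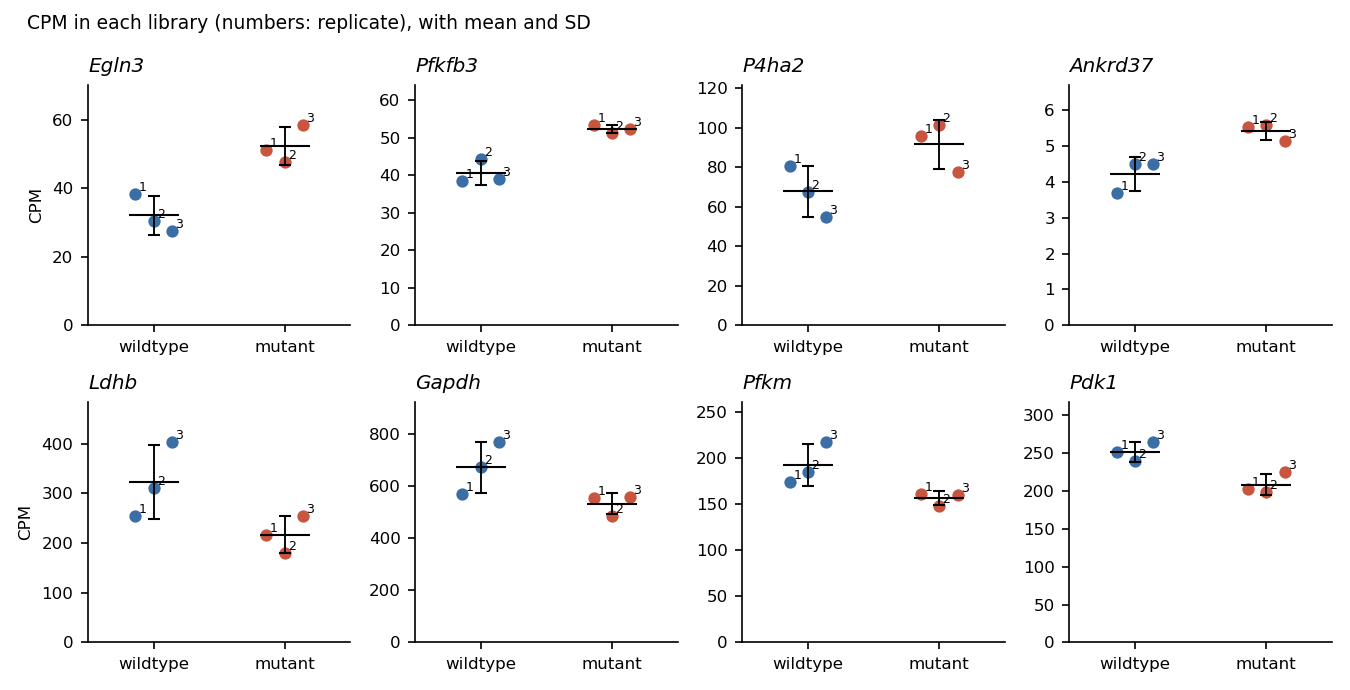
CPM of 8 genes in each library (points, numbered by replicate) with the mean and SD of each group (bars, n = 3), on axes that start at 0. Mutant libraries lie above all wildtype libraries for Egln3, Pfkfb3 and Ankrd37 and below them for Ldhb, Gapdh, Pfkm and Pdk1, and P4ha2 overlaps through mutant 3 at 77.8 and wildtype 1 at 80.7 CPM.

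Of the 6 other hypoxia targets, 4 were higher and 2 lower. P4ha2, a prolyl hydroxylase of procollagen, lies at chr11:54100095-54131665 on the plus strand (GRCm38) and was at 80.7, 67.6 and 54.9 CPM in the wildtype and 95.9, 102 and 77.8 CPM in the mutant libraries. Mutant 3 lay below wildtype 1, so the groups overlapped (log2 fold change 0.44 ± 0.15, adjusted p = 0.228). The adjusted p was 0.0178 with the replicate block and 0.0304 without wildtype 1, in a range of 0.0103 to 0.993. Collagen-making mesenchymal cells are a known site of P4ha2. At an unadjusted p under 0.05, 8.23% of all genes and 1693 of the 16655 averaging 1 CPM or more were higher. The 8 Mesenchymal markers all had a positive log2 fold change, 6 of them at that p. Their median deviations were 0.29, -0.44 and -0.85 in wildtype 1, 2 and 3 and 0.37, 0.50 and 0.064 in mutant 1, 2 and 3, the same order of libraries as P4ha2. With the Myocardial covariate the log2 fold change of P4ha2 was 0.071 ± 0.12. The part of the mesenchymal transcripts in this difference was not tested. P4ha1, its relative, averaged 109 ± 15.2 and 125 ± 7.06 CPM (log2 fold change 0.20 ± 0.11).

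Ankrd37, a small ankyrin-repeat gene, was low, at 3.69, 4.50 and 4.50 CPM in the wildtype and 5.55, 5.60 and 5.15 CPM in the mutant libraries. The groups did not overlap (log2 fold change 0.36 ± 0.16, adjusted p = 0.308). Its exons overlap those of Ufsp2 (34.6 CPM) and Lrp2bp on the opposite strand, so reads from these genes can be included if the counting did not use strand. Ndrg1, a stress-responsive gene, had a log2 fold change of 0.12 ± 0.14 that rested on mutant 3 (28.6 CPM) and was -0.051 without that library. Bnip3, which directs mitochondria to autophagy, was at 97.0, 84.7 and 68.6 CPM in the wildtype and 67.4, 69.7 and 71.0 CPM in the mutant libraries. Only wildtype 3 lay among the mutant values (log2 fold change -0.27 ± 0.12, adjusted p = 0.320). With the Myocardial covariate the log2 fold change of Bnip3 was -0.43 ± 0.14. Higd1a, a mitochondrial protein of hypoxic cells, was at 40.2, 41.6 and 45.5 CPM and at 33.5, 31.9 and 40.3 CPM. Mutant 3 lay just above wildtype 1 (log2 fold change -0.27 ± 0.11, adjusted p = 0.287).

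To place these genes in their pathways, 52 further genes of HIF regulation, glucose handling and the hypoxia response were read from the same fit, and edgeR called 0 of them (20 with an unadjusted p under 0.05, 6 higher and 14 lower, against 16.1% of all genes and 22.0% of those averaging 1 CPM or more). DESeq2 called 6 (2.64% of all genes), the replicate block 13 (5.6%) and the fit without wildtype 1 16 (9.45%). Of the 16655 genes averaging 1 CPM or more, these fits called 721, 1499 and 2493. The block by the sample descriptions exchanges the uncertain numbers of wildtype 2 and 3. With it 0 of the 52 were called, against 0.295% of all genes. Glucose handling genes were lower for 20 of 24 (median log2 fold change -0.28, 12 lower and 0 higher with an unadjusted p under 0.05). Hypoxia targets were higher for 14 of 22 (median 0.16, 6 higher and 2 lower at that p). Of all genes 48.8% were lower and 51.2% higher (54.7% and 45.3% of those averaging 1 CPM or more). With the Myocardial covariate the medians were -0.072 and 0.019, with 20 of 24 lower and 12 of 22 higher, respectively. HIF regulators were split 3 and 3, and 0 of 6 had an unadjusted p under 0.05.

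Vegfa, the vascular growth factor, had the lowest unadjusted p of the further genes. It was at 139, 117 and 122 CPM in the wildtype and 178, 169 and 189 CPM in the mutant libraries, without overlap (log2 fold change 0.50 ± 0.10, adjusted p = 0.153). Adm, the vasodilator adrenomedullin, was at 3.08, 3.90 and 3.48 CPM and at 5.22, 5.50 and 6.29 CPM, likewise without overlap (log2 fold change 0.70 ± 0.17, adjusted p = 0.181). Their log2 fold changes with the Myocardial covariate were 0.52 ± 0.13 and 0.82 ± 0.23. Angptl4, a secreted inhibitor of lipoprotein lipase, had a log2 fold change of 0.55 ± 0.16, and of 0.27 ± 0.17 with the covariate. Plod1, a lysyl hydroxylase of collagen, had one of 0.35 ± 0.11, and of 0.17 ± 0.12 with the covariate. Tfrc, the transferrin receptor, was lower at -0.31 ± 0.10, and at -0.32 ± 0.13 with the covariate. Tfrc is abundant in erythroid precursors, and all 10 Erythroid markers found had a negative log2 fold change. Tfrc was at 99.9, 81.8 and 87.3 CPM in wildtype 1, 2 and 3, where the Erythroid markers summed to 5420, 11914 and 10242 CPM. The part of erythroid transcripts in the Tfrc difference was not tested.

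Pyruvate dehydrogenase, which passes pyruvate on to the mitochondria, was represented by Pdha1, Pdhb and Dlat, 3 of its subunits named for their low unadjusted p. Their log2 fold changes were -0.50, -0.54 and -0.43 (standard errors 0.13, 0.14 and 0.14), and for each the mutant libraries lay below all wildtype libraries. Its kinases Pdk3 and Pdk4, named by the same rule, were also lower without overlap (log2 fold changes -0.53 and -0.48, standard errors 0.17 and 0.13). Groups did not overlap for 19.6% of all genes and 23.5% of those averaging 1 CPM or more. With the Myocardial covariate the log2 fold changes were -0.19, -0.17 and -0.064 for the subunits, -0.094 for Pdk3 and -0.44 ± 0.16 for Pdk4. Pkm, which makes pyruvate, had a log2 fold change of -0.17 ± 0.12 (adjusted p = 0.50). In edgeR over all libraries, adjusted p values of Angptl4, Plod1, Tfrc, Pdha1, Pdhb, Dlat, Pdk3 and Pdk4 were between 0.194 and 0.22. With the replicate block, adjusted p values of Vegfa, Adm, Angptl4, Pdha1, Pdhb, Dlat, Pdk3 and Pdk4 were between 0.0042 and 0.0264, and over all alternatives between 0.00159 and 0.994. Plod1 and Tfrc, named by the same rule, were not called with the replicate block (adjusted p = 0.057 and 0.0988). None of these genes was called with the block by the sample descriptions.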

How the data were processed

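RNA-Seq was measured in 6 libraries of E13.5 OFT, 3 labelled mutant and 3 labelled wildtype. As the methods and labels state, the authors aligned paired-end reads to mm10 with TopHat2 2.1.0 and counted reads on exons with GenomicAlignments; the deposited values are raw counts per gene. Whether the counting used strand is not given in the sources used here. From the counts, genes whose counts over the 6 libraries summed to 5 or less were dropped and 28157 were tested in R 4.3.3 with edgeR 4.0.16 (TMM scaling, quasi-likelihood test, Benjamini-Hochberg adjustment over all genes tested, threshold 0.05). The biological coefficient of variation was 0.17 and the prior degrees of freedom were 6.67. DESeq2 1.42.0, limma-voom 3.58.1, other scalings and filters, a replicate block, a GC and length correction, the Myocardial markers as a covariate and leaving out each library were alternatives. The scripts were tested on simulated data.

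Symbols, positions and exon lengths came from GENCODE M21 (GRCm38), which held 28723 of the 28777 identifiers, and promoter sequences from RefSeq (GRCm38.p6). The Aldoa symbol belongs to 2 identifiers, and the one with the higher count was used. The members and gene lists were chosen with earlier results of these data known. All 35 members were named. Of the other pathway genes, the 10 with the lowest unadjusted p among those averaging 1 CPM or more were named, and Pkm. Values are given library by library for a member whose groups did not overlap, whose unadjusted p was under 0.05, or whose level per length was the highest of its role.

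The replicate numbers were checked for pairing. Deviations from the group means over 16655 genes averaging 1 CPM or more correlated at 0.101, 0.152 and 0.458 for numbers 1, 2 and 3, so a fit with the number as a block was read beside the results. The pairing comes from the data alone, since no label ties a number to a litter or day. Wildtype 1 correlated more with mutant 2, at 0.318, than with mutant 1. The library numbers of wildtype 2 and 3 are crossed between sample titles and descriptions. The titles were used, and a block by the descriptions was added after the data were seen. In that second pairing the correlations of wildtype 2 with mutant 3 and of wildtype 3 with mutant 2 were -0.118 and -0.487.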

Additional observations from a re-analysis of the deposited data

How the results depend on the processing

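For 35 genes and the group summaries, 16 planned and 2 added alternatives were run. Over all genes, 6 were called by edgeR, 742 by DESeq2, 1577 with the replicate block, 2052 with the block and the GC and length correction, and 83 with the block by the sample descriptions. Leaving out a library gave 1 to 2593 calls, 2593 of them without wildtype 1. Of the 35 genes, 0 were called in edgeR, 3 by DESeq2, 6 with the replicate block, 14 with the block and the GC and length correction (3 higher and 11 lower), 1 (Egln3) with the block by the descriptions, and 0 to 10 when a library was left out. Of the 52 further genes, 0, 6, 13 and 21 were called by edgeR, DESeq2, the block and the block with the correction, 0 with the block by the descriptions, and 0 to 16 when a library was left out. The replicate block alone changed no other call of the 35 genes. The cause of these differences in calls was not tested, and the 10 calls without wildtype 1 were counted in a fit of 5 libraries.

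Scaling by library size only moved the median log2 fold change to -0.047 for all 35 genes and for HIF subunits, 0.13 for oxygen sensing and 0.26 for other hypoxia targets, with the median of all genes at 0.11. The Myocardial covariate moved the medians to 0.0047 (35 genes), 0.081 (HIF subunits), 0.046 (transporters), -0.011 (glycolytic enzymes), -0.15 (metabolic switches) and 0.080 (other hypoxia targets). The GC and length correction gave 0.082 for oxygen sensing, and 0.083 with the block. When a library was left out, medians were between -0.040 and 0.28 for metabolic switches and between 0.060 and 0.21 for other hypoxia targets.

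The sign of single genes turned under some alternatives. With the Myocardial covariate the log2 fold changes were 0.081 for Epas1, 0.019 for Slc16a1, 0.073 for Slc16a3, 0.25 for Hk2, 0.048 for Gpi1, 0.060 for Pfkl, -0.075 for Aldoc, 0.065 for Pgam1, 0.0047 for Eno3, 0.0038 for Ldha and -0.23 for Pfkfb4. With library size only they were 0.013 for Slc16a3, 0.042 for Hk2 and 0.010 for Pfkl. Without wildtype 3 they were 0.0084 for Hk2, 0.0011 for Pfkl and -0.040 for Pfkfb4, without mutant 2 0.072 for Hk2 and -0.030 for Aldoc, and without mutant 3 -0.051 for Ndrg1. Leaving out a library gave -0.17 to 0.0011 for Pfkl and -0.030 to 0.17 for Aldoc. Over gene values, call counts, group medians and ratios, 971 values were classed as unchanged. For a gene this meant the same direction and the same side of the threshold. For a call count it meant a factor of at most 1.5, and for a median a shift smaller than its SD within groups. A further 64 gene values kept their direction and passed the threshold. With 3 libraries a group, exact permutation tests of single values cannot go below 0.1.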
